A study of Mus musculus with 16 samples.

Results

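The genes that encode the chains of the fibrillar collagens of types I, III and V were examined in mouse liver during fibrosis and its resolution. The 6 genes (Col1a1, Col1a2, Col3a1, Col5a1, Col5a2 and Col5a3) were taken by symbol from a table of 55401 genes, where each symbol had 1 row, and all 6 were among the 17292 genes that passed the filter on low counts. RNA of whole liver from wild-type mice was sequenced in 16 libraries that form 8 groups of 2. In the TAA group, mice had received thioacetamide, a hepatotoxin given here at 300 mg/L in the drinking water, for 8 weeks. In 3 recovery groups with choline, the toxin was stopped after those 8 weeks and choline chloride was given in the water at 3.5 g/L for 1, 2 or 4 weeks. In 3 recovery groups on water, the toxin was stopped for the same 1, 2 or 4 weeks without choline. The control group was wild type and is labelled only as control. The sources used here do not give the strain, sex or age of the mice. Whether the pair of libraries in a group stands for separate animals is also not stated, and every p-value therefore reflects only how far such pairs differ, possibly for technical reasons.

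Fibrillar collagens are secreted as procollagen trimers that assemble into the cables of the extracellular matrix. Type I collagen, built from Col1a1 and Col1a2 chains, and type III collagen, built from Col3a1 chains, make up most of the scar in a fibrotic liver, where hepatic stellate cells and portal fibroblasts that have become myofibroblasts secrete them. Type V collagen, built from Col5a1, Col5a2 and in some tissues Col5a3 chains, lies inside type I fibrils and limits their diameter. When the injury stops, myofibroblasts die or return to a quiescent state, and the matrix is cleaved by proteases and taken up by cells.

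The members lie on 5 mouse chromosomes (build GRCm38, coordinates of the deposited table). Col1a1 (ENSMUSG00000001506) is at chr11:94936224-94953042 on the plus strand and Col1a2 (ENSMUSG00000029661) at chr6:4505493-4541544 on the plus strand. Col3a1 (ENSMUSG00000026043) at chr1:45311538-45349706 and Col5a2 (ENSMUSG00000026042) at chr1:45374321-45503282 are neighbours that point towards each other with 24614 bases between them. Col5a1 (ENSMUSG00000026837) is at chr2:27886425-28039514 on the plus strand, and Col5a3 (ENSMUSG00000004098) is at chr9:20770050-20815067 on the minus strand. The longest annotated transcripts have between 51 exons (Col1a1 and Col3a1) and 67 exons (Col5a3). Annotated genes that overlap the members held few counts, at most the 223 of Gm38211 on the strand of Col5a2 against 4445 of Col5a2 over all libraries.

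Because the genes share a fibril but did not share 1 pattern of RNA level, the promoters are shown for the 4 of 6 members with an entry in the RefSeq promoter table (assembly GRCm38.p6). Each line gives the 150 bases before the start of the gene in that table, read in the direction of transcription, and capitals mark every match, on either strand, to the motif CCAAT, to the motif TATAAA and to the motif GGGCGG.
Col1a2: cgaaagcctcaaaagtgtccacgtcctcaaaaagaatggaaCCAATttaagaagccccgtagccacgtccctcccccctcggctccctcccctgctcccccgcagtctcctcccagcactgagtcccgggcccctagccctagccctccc
Col3a1: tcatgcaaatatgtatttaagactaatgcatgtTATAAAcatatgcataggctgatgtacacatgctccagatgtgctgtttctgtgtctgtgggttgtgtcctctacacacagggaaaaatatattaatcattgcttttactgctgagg
Col5a1: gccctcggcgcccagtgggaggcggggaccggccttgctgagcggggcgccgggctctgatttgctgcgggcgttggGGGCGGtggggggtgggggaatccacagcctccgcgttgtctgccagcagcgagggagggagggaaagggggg
Col5a3: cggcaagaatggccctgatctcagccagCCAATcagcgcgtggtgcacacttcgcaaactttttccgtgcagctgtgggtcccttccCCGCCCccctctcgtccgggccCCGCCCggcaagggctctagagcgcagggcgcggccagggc
These windows are chr6:4505468-4505617 for Col1a2, chr1:45311388-45311537 for Col3a1, chr2:27886275-27886424 for Col5a1, all on the plus strand, and chr9:20815068-20815217 on the minus strand for Col5a3. The windows of Col3a1, Col5a1 and Col5a3 end at the start that the deposited table gives for the gene. The deposited start of Col1a2, 4505493, lies inside its window, so most of that window belongs to the gene as deposited. The CCAAT match of Col1a2 starts 109 bases before the RefSeq start and that of Col5a3 starts 122 bases before it. The window of Col3a1 holds TATAAA, starting 117 bases before the RefSeq start, and no match to the other 2 motifs. GGGCGG was found in Col5a1 as printed, and its reverse complement CCGCCC in Col5a3 at 2 positions. Among 32851 promoter windows of the same length, 24.5% hold CCAAT, 7.57% hold TATAAA and 28.6% hold GGGCGG, so these matches are common sequences and describe the windows only. The windows of Col5a1 and Col5a3 contain 74.7% and 68.7% G and C, that of Col1a2 62.7% and that of Col3a1 37.3%, beside a median of 54.0% over all windows.

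Library totals ranged from 23.1 to 33.6 megacounts. TAA replicate 1 and control replicate 1 stood apart from the other 14 libraries in Malat1 and Neat1, RNAs that stay in the nucleus. Malat1 was at 1019 CPM in TAA replicate 1 and at 146 CPM in control replicate 1, where CPM are counts scaled to library size (counts per megacount), and at 5230 to 6799 CPM in the other 14. Neat1 was at 107 CPM in TAA replicate 1 and at 36.9 CPM in control replicate 1, and at 1962 to 15220 CPM elsewhere. These libraries hold 1 of the 2 values of their groups, so results for TAA and control are also given without both of them, from a fit in which TAA and control are each a single library assumed to vary like the other groups. That alternative was chosen after the data were seen.

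After 8 weeks of thioacetamide the RNA of 5 of the 6 genes was higher than in control, most of all that of Col1a1. In the edgeR quasi-likelihood test with Benjamini-Hochberg adjustment over all 17292 genes, 5 members passed an adjusted p of 0.05 and were higher in TAA than in control, while 10% of all genes were higher and 11% lower. A fit of these 4 libraries alone called 0 members and 16 genes in all. The members' median log2 fold change was 2.58, against 0.03 for all genes tested. In RNA of whole liver, more cells that make a collagen and more collagen RNA per cell cannot be told apart. The plot of levels by group shows all 16 libraries.

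**Figure D1:**
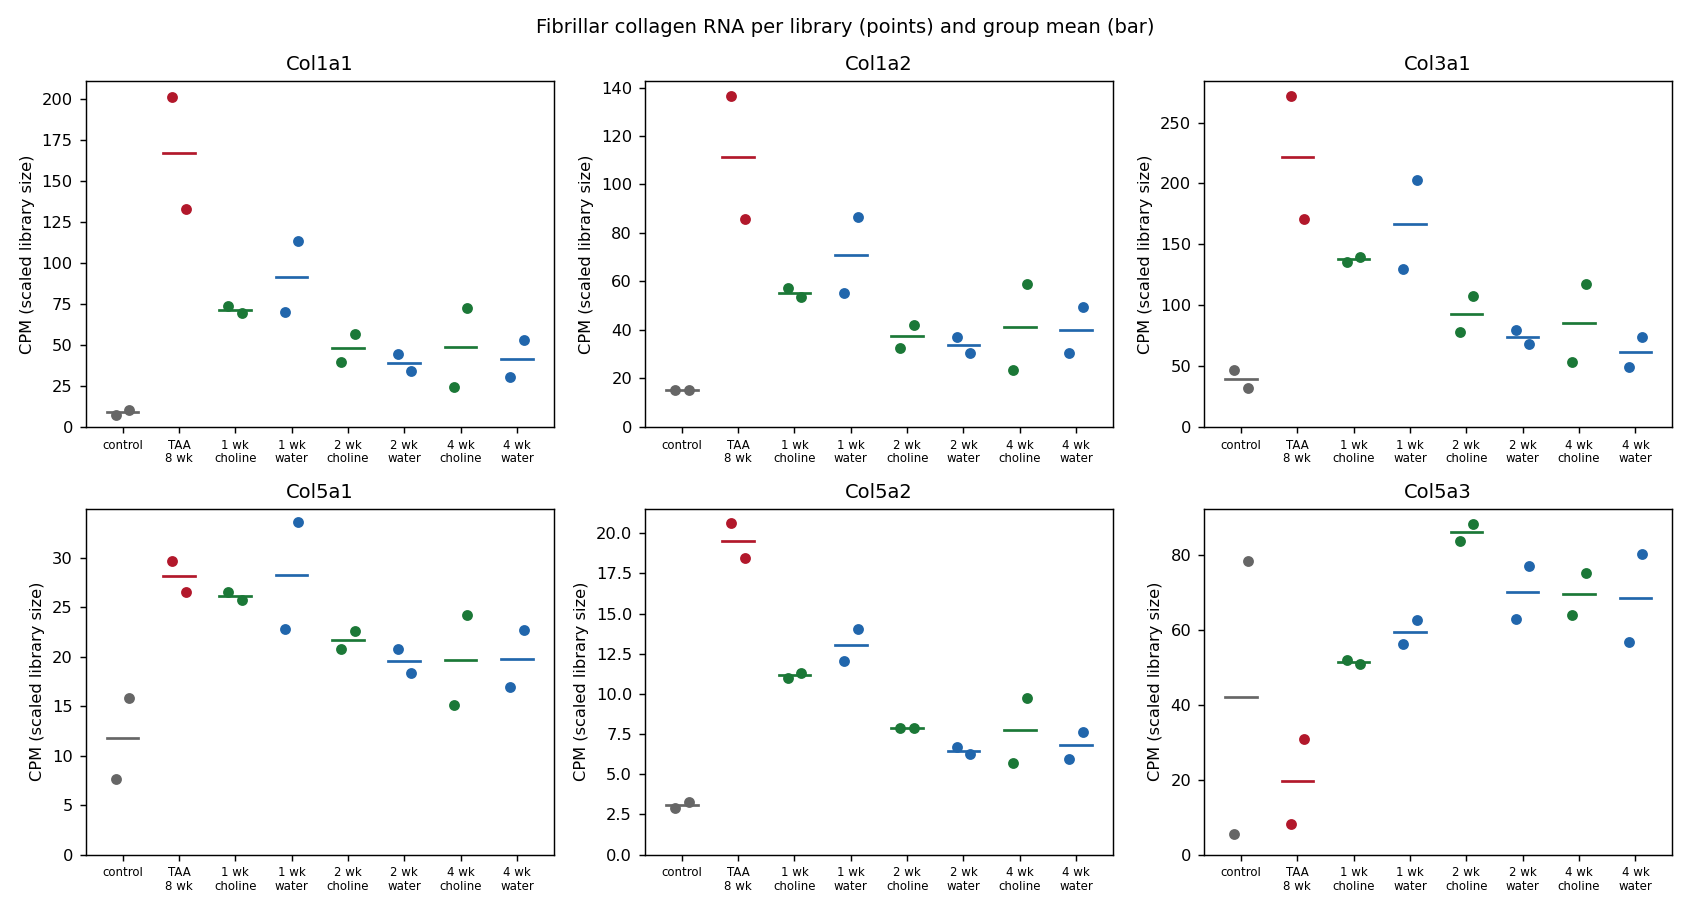
CPM (vertical axes, starting at 0) of each gene in each library (points) with the mean of the 2 libraries of a group (bars), for control, TAA and the 3 recovery times with choline (green) or on water (blue). In the mean, Col1a1, Col1a2, Col3a1 and Col5a2 were highest in TAA and lowest in control. Col5a3 was lowest in 1 control library and in both TAA libraries.

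Both chains of type I collagen were higher after thioacetamide. Col1a1 had 201 and 133 CPM in TAA, against 7.54 and 10.3 CPM in control. Both TAA libraries lay far above both controls, and the log2 fold change was 4.22 ± 0.52 (SE), an 18.7-fold difference with an edgeR adjusted p of 0.000421. Col1a2 had 137 and 85.7 CPM in TAA and 15.1 and 15.3 CPM in control. Its log2 fold change was 2.87 ± 0.42 (7.29-fold, edgeR adjusted p = 0.001), and again the groups did not overlap. In every omission of 1 of the 16 libraries both kept their call, with log2 fold changes of 3.87 to 4.5 for Col1a1 and 2.47 to 3.18 for Col1a2. Without both libraries low in Malat1, Col1a1 kept its call (log2 3.68, edgeR adjusted p = 0.0327) and Col1a2 lost it (log2 2.48, edgeR adjusted p = 0.0533).

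Col3a1, the chain of type III collagen, had the highest mean TPM of the members in TAA. It had 272 and 171 CPM in TAA, against 46.6 and 31.6 CPM in control. The groups did not overlap, and the log2 fold change was 2.50 ± 0.40 (5.66-fold, edgeR adjusted p = 0.00157). It kept its call in every omission of 1 library, and without both libraries low in Malat1 it was 2.42 (edgeR adjusted p = 0.0353).

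Of the type V chains, Col5a2 and Col5a1 passed the test between TAA and control, and Col5a3 did not. Col5a2 had 20.6 and 18.5 CPM in TAA and 2.93 and 3.29 CPM in control, with replicates that differed little in either group. Its log2 fold change was 2.65 ± 0.24 (6.28-fold), with the smallest adjusted p of the members (edgeR, 0.000124). It was 2.48 without both libraries low in Malat1 (edgeR adjusted p = 0.000772). Col5a1 rose less: it had 29.7 and 26.5 CPM in TAA and 7.64 and 15.9 CPM in control, a log2 fold change of 1.25 ± 0.32 (2.38-fold, edgeR adjusted p = 0.0176). That call rested on single libraries, since the log2 fold change was 0.82 without control replicate 1 (edgeR adjusted p = 0.0716), 1.15 without TAA replicate 1 (edgeR adjusted p = 0.0888) and 0.74 without both (edgeR adjusted p = 0.188).

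Col5a3 was the member that did not pass the test. It had 8.28 and 30.8 CPM in TAA, against 5.49 and 78.4 CPM in control, so that the groups overlapped and the 2 controls differed more than TAA did from control. The log2 fold change was -1.11 ± 0.82 (95% confidence interval -2.90 to 0.68, edgeR adjusted p = 0.369). In each group the lower value came from replicate 1, the library low in Malat1. Without both of those libraries Col5a3 was lower in TAA (30.8 CPM) than in control (78.4 CPM), with a log2 fold change of -1.35 between single libraries. Without control replicate 1 alone it was -2.02, and without control replicate 2 it turned to 1.81. With all 16 libraries but without the filter on low counts, edgeR called Col5a3 lower in TAA than in control. That fit called 4225 of 29554 genes.

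After thioacetamide was stopped, Col1a1, Col1a2 and Col5a2 were lower than in TAA at 2 and 4 weeks with and without choline, and in the mean all 3 stayed above the control level. At 1 week no member passed the test against TAA on choline, where 2.48% of all genes were higher and 2.28% lower, or on water, where 1.97% were higher and 1.78% lower. There, 3 members on choline and 1 on water had an unadjusted p under 0.05, and the DESeq2 Wald test called 1 and 0. At 2 weeks 3 members were lower on choline (4.5% of all genes were lower and 4.24% higher) and 4 on water (5.88% lower and 5.13% higher). At 4 weeks 4 members were lower on choline (7.43% lower and 6.23% higher) and the same 4, Col1a1, Col1a2, Col3a1 and Col5a2, on water (8.39% lower and 6.47% higher). In the edgeR model of all 16 libraries no member was called higher at any time. These 6 comparisons share the TAA libraries.

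Col1a1 had 73.5 and 69.4 CPM at 1 week of choline and 70.2 and 113 CPM at 1 week of water, against 201 and 133 CPM in TAA. All of these lay below both TAA libraries, but the log2 differences of -1.23 ± 0.45 and -0.86 ± 0.45 were not called (edgeR adjusted p = 0.147 and 0.322). At 2 weeks the levels were 39.9 and 56.5 CPM on choline and 44.6 and 34.0 CPM on water. The difference from TAA was then -1.80 ± 0.46 on choline (edgeR adjusted p = 0.0339) and -2.09 ± 0.47 on water (edgeR adjusted p = 0.0161). At 4 weeks the choline libraries stood apart from each other, at 24.4 and 72.6 CPM, and the water libraries had 30.2 and 53.3 CPM. The 4-week differences from TAA were -1.79 ± 0.46 on choline (edgeR adjusted p = 0.025) and -2.0 ± 0.46 on water (edgeR adjusted p = 0.0145).

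Col1a2 followed its partner chain. At 2 weeks it had 32.7 and 42.1 CPM on choline and 37.3 and 30.5 CPM on water, against 137 and 85.7 CPM in TAA. The log2 differences from TAA were -1.57 ± 0.40 on choline (edgeR adjusted p = 0.0318) and -1.72 ± 0.40 on water (edgeR adjusted p = 0.0192). At 4 weeks it had 23.5 and 58.9 CPM on choline and 30.5 and 49.4 CPM on water. The 4-week differences were -1.43 ± 0.40 on choline (edgeR adjusted p = 0.0332) and -1.48 ± 0.40 on water (edgeR adjusted p = 0.0277).

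Col3a1 had the smallest 1-week differences of the 4 genes, -0.69 ± 0.38 on choline and -0.41 ± 0.38 on water, both uncalled. At 2 weeks it had 77.6 and 107 CPM on choline and 79.3 and 67.9 CPM on water, against 272 and 171 CPM in TAA. The choline difference of -1.26 ± 0.38 missed the threshold (edgeR adjusted p = 0.0632) and the water difference of -1.59 ± 0.38 passed it (edgeR adjusted p = 0.0228). This is not a difference between the treatments, which is tested further on. At 4 weeks Col3a1 had 53.7 and 117 CPM on choline and 49.3 and 73.8 CPM on water, and both differences were called, -1.37 ± 0.38 on choline (edgeR adjusted p = 0.0341) and -1.85 ± 0.39 on water (edgeR adjusted p = 0.00907).

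Col5a2 gave the tightest values. It had 10.97 and 11.3 CPM at 1 week of choline and 12.02 and 14.02 CPM at 1 week of water, against 20.6 and 18.5 CPM in TAA. At 2 weeks it had 7.90 and 7.86 CPM on choline and 6.68 and 6.27 CPM on water. At 4 weeks it had 5.71 and 9.77 CPM on choline and 5.94 and 7.65 CPM on water. Every recovery library lay below both TAA libraries. The log2 difference from TAA was -1.31 ± 0.23 at 2 weeks of choline (edgeR adjusted p = 0.00669), -1.59 ± 0.23 at 2 weeks of water (edgeR adjusted p = 0.00241), -1.34 ± 0.23 at 4 weeks of choline (edgeR adjusted p = 0.00371) and -1.52 ± 0.23 at 4 weeks of water (edgeR adjusted p = 0.00173).

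Col5a1 was never called against TAA. It had 26.5 and 25.7 CPM at 1 week of choline, 22.8 and 33.6 CPM at 1 week of water, and 15.1 to 24.2 CPM in the 8 libraries of weeks 2 and 4, against 29.7 and 26.5 CPM in TAA. All 8 of those later libraries lay below both TAA libraries, and their log2 differences were -0.37 to -0.52 with edgeR adjusted p of 0.297 to 0.5. Col5a3 had values on the other side of TAA. It had 50.8 to 62.8 CPM in the 4 libraries of week 1 and 56.9 to 88.2 CPM in the 8 of weeks 2 and 4, against 8.28 and 30.8 CPM in TAA. Every recovery library lay above both TAA libraries, but with such unequal TAA replicates the log2 differences of 1.40 to 2.14 did not pass the test (edgeR adjusted p = 0.143 to 0.362). Without both libraries low in Malat1, which leaves TAA and control 1 library each, the 6 differences were log2 0.74 to 1.48. They stayed positive in every omission of 1 of the 16 libraries, at log2 0.76 to 3.38. Without the filter on low counts, edgeR called Col5a3 higher than in TAA in all 6 recovery groups. That fit called 1645 to 3612 of 29554 genes in these comparisons.

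Most of the falls rested on TAA replicate 1. Without it, the differences from TAA at 2 weeks of water were -1.73 for Col1a1, -1.31 for Col1a2 and -1.19 for Col3a1, and none was called (edgeR adjusted p = 0.102, 0.137 and 0.16). At 4 weeks of water they were -1.65, -1.08 and -1.45 (edgeR adjusted p = 0.0957, 0.191 and 0.0727). On choline, Col1a1 and Col1a2 lost their calls without it at both times and Col3a1 at 4 weeks, with edgeR adjusted p of 0.153 to 0.228. The libraries of the recovery groups mattered as well. On water, leaving out either 2-week library ended the calls of the same 3 genes at 2 weeks (edgeR adjusted p = 0.0939 to 0.165), replicate 1 of 4 weeks ended all 3 at that time (edgeR adjusted p = 0.0932 to 0.198), and replicate 2 of 4 weeks ended that of Col1a2 (edgeR adjusted p = 0.0653). On choline, leaving out either 2-week library ended the calls of Col1a1, Col1a2 and Col5a2 at 2 weeks (edgeR adjusted p = 0.0647 to 0.253), and replicate 1 of 4 weeks ended those of Col1a1, Col1a2 and Col3a1 (edgeR adjusted p = 0.158 to 0.24). The choline calls of Col1a1 at 2 weeks, Col3a1 at 4 weeks and Col1a2 at both times also slipped over the threshold when single libraries of other recovery groups were left out, with edgeR adjusted p just above 0.05. The falls of Col1a1, Col1a2 and Col3a1 were not called without both libraries low in Malat1 (edgeR adjusted p = 0.0586 to 0.208). Col5a2 is the exception: its falls at 2 and 4 weeks of water and 4 weeks of choline were called in each of the 22 other settings tried, with edgeR adjusted p of at most 0.0483.

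**Figure D2:**
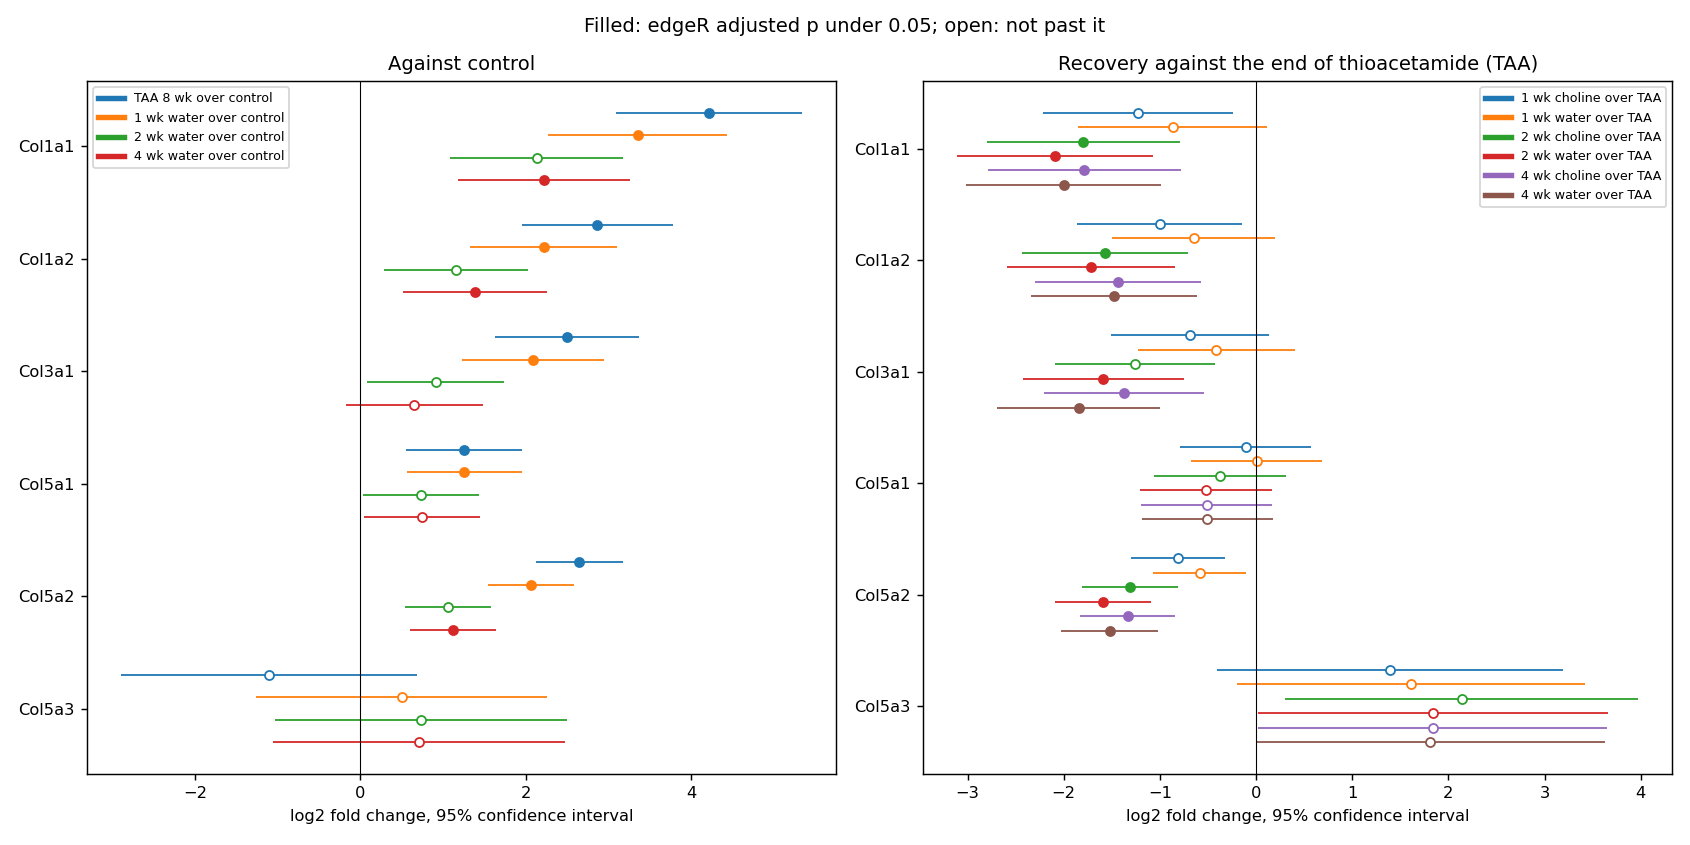
Log2 fold changes of the 6 genes (horizontal axes) with 95% confidence intervals from the edgeR fit, against control (left, TAA and recovery on water) and against TAA (right, all recovery groups). Filled points passed an adjusted p of 0.05. Col5a2 has the narrowest intervals and Col5a3 the widest.

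Against control, the recovering livers kept part of the collagen RNA gained under thioacetamide. The 1-week livers had 4 members higher on choline, where 1.48% of all genes were higher and 2.58% lower, and 5 on water (1.90% higher and 2.35% lower). At 2 weeks 1 member, Col5a2, was higher on choline (0.226% higher and 0.312% lower) and none on water (0.150% higher and 0.249% lower), where 5 members had an unadjusted p under 0.05 and the DESeq2 Wald test called 3. At 4 weeks 2 members were higher on choline (1.09% higher and 1.57% lower) and 3 on water (7.33% higher and 12.2% lower). No member was lower. All 6 of these comparisons share the control libraries.

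Col1a1 at 4 weeks was 5.41-fold above control on choline (log2 2.44 ± 0.48, edgeR adjusted p = 0.0425) and 4.66-fold above it on water (log2 2.22 ± 0.48, edgeR adjusted p = 0.0161). Col5a2 was 2.49-fold above control on choline (log2 1.31 ± 0.24, edgeR adjusted p = 0.032) and 2.18-fold above it on water (log2 1.13 ± 0.24, edgeR adjusted p = 0.0156). Each of the 4 libraries at 4 weeks lay above both controls for both genes. Col1a2 was called on water (log2 1.39 ± 0.40, edgeR adjusted p = 0.035) and missed the threshold on choline (log2 1.44 ± 0.40, edgeR adjusted p = 0.0605). Col3a1 had a log2 difference from control of 1.13 ± 0.38 on choline (edgeR adjusted p = 0.0849) and 0.65 ± 0.38 on water (edgeR adjusted p = 0.22).

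These calls against control were fragile. At 4 weeks of choline, 12 of the 16 omissions ended the calls of Col1a1 and of Col5a2 (edgeR adjusted p of up to 0.275 and 0.254), with a log2 fold change of 1.44 for Col1a1 without replicate 2 of that group. At 4 weeks of water, the 3 omissions that ended the calls of Col1a1 and Col5a2 were control replicate 1 (edgeR adjusted p = 0.134 and 0.0569) and each library of the group itself (edgeR adjusted p = 0.0579 to 0.121). The call of Col1a2 at 4 weeks of water was ended by 10 omissions, and that of Col5a2 at 2 weeks of choline by 13. Without both libraries low in Malat1, Col5a2 alone was called above control at 1 week and at 4 weeks, with either treatment, and no member was at 2 weeks. Without control replicate 2, the library low in Malat1 is the only control, and Col5a3 was above it in all 6 recovery groups (log2 3.22 to 3.97). Col5a1 then had log2 fold changes of 1.35 to 1.77 in the 5 groups where the edgeR model of all 16 libraries did not call it. Without the filter on low counts Col5a1 was called in these 5 groups, with log2 fold changes of 0.73 to 1.16. In them that fit called 2677 to 5042 of 29554 genes. The number of omissions that ended a call at 1 week was 15 of 16 for Col5a1 on water, 11 for each of Col1a2 and Col3a1 on choline, 6 for Col1a2 and 7 for Col3a1 on water, and 3 on choline and 2 on water for Col1a1. For Col5a2 at 1 week it was 1 on choline (replicate 1 of that group, edgeR adjusted p = 0.0569) and 0 on water.

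Measured as a share of the mean rise in CPM between control and TAA, what was left at 1 week was 39.5% on choline and 52.4% on water for Col1a1, 54.1% and 69.8% for Col3a1, and 48.9% and 60.3% for Col5a2. At 4 weeks it was 25.0% and 20.7% for Col1a1, 25.4% and 12.3% for Col3a1, and 28.2% and 22.4% for Col5a2. Col5a1 kept 48.5% on choline and 49.2% on water of a rise that was itself small. These shares are ratios of means of 2 libraries, given without an error, and the unequal TAA replicates enter all of them. The choline shares at 4 weeks also average unequal libraries, with 24.4 and 72.6 CPM of Col1a1.

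Joined over both treatments, week 2 lay below week 1 in every library for Col1a1, Col1a2, Col3a1, Col5a1 and Col5a2, yet none of the 6 genes passed the test, where 0.0405% of all genes were higher and 0.0173% lower. The log2 differences were -0.90 ± 0.32 for Col1a1, -0.82 ± 0.28 for Col1a2, -0.88 ± 0.27 for Col3a1 and -0.76 ± 0.16 for Col5a2. Their unadjusted edgeR p were 0.0163, 0.0124, 0.00684 and 0.000556, and the adjusted p of Col5a2 was 0.172. In the fit without both libraries low in Malat1 Col5a2 passed (log2 -0.76, edgeR adjusted p = 0.0313), as it did in the DESeq2 Wald test (adjusted p = 0.0107). Between weeks 4 and 2 no member was called (0.353% of all genes were higher and 0.156% lower), no member had an unadjusted p under 0.05, and the log2 differences lay between -0.19 and 0.19.

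Choline made no difference to any of the 6 genes that the test could detect. At 1, 2 and 4 weeks and in the mean of the 3 times, 0 members were called by edgeR, 0 had an unadjusted p under 0.05, and the DESeq2 Wald test called 0. Among all genes none was called at 1 or 2 weeks, 0.0520% were higher at 4 weeks and 0.0173% were higher in the mean. At 1 week the log2 differences of choline from water were negative for all 6 genes, from -0.11 ± 0.31 for Col5a1 to -0.36 ± 0.45 for Col1a1. At 2 weeks all 6 were positive, from 0.15 ± 0.39 for Col1a2 to 0.33 ± 0.38 for Col3a1, and at 4 weeks they lay between -0.01 and 0.47.

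The intervals state what a choline effect could still be. In the mean of the 3 times the difference was 0.05 for Col1a1 (95% confidence interval -0.52 to 0.62), -0.06 for Col1a2 (-0.55 to 0.44), 0.18 for Col3a1 (-0.30 to 0.65), 0.01 for Col5a1 (-0.39 to 0.41) and 0.08 for Col5a2 (-0.20 to 0.37). For Col5a3 it was 0.04 with an interval from -0.98 to 1.05, which leaves room for a change of about 2-fold in either direction. The test of the change in the choline effect between times called no gene at all, and no member had an unadjusted p under 0.05. At 4 weeks on choline the 2 libraries stood apart, with 24.4 and 72.6 CPM of Col1a1, and the second was higher in all 6 members. Summed markers of several cell types were higher in the second library as well, at 63.1 and 170 CPM for bile duct cells, 19.2 and 43.2 CPM for portal fibroblasts, 26.5 and 51.2 CPM for myofibroblasts and 348.8 and 525.5 CPM for stellate cells, while those of macrophages were lower in it, at 153 and 88.7 CPM. Their part in the result was not tested.

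**Figure D3:**
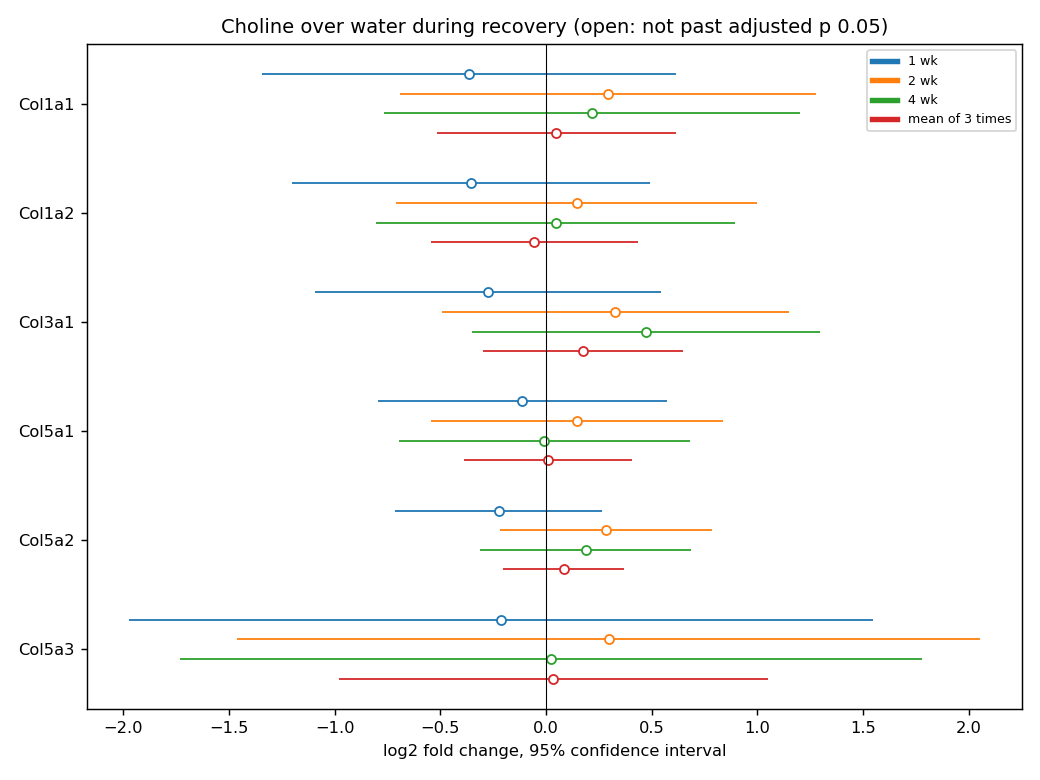
Log2 fold change of choline over water (horizontal axis) with 95% confidence intervals for each gene at 1, 2 and 4 weeks and in the mean of the 3 times. Every interval includes 0, and the interval of the mean is the narrowest for each gene.

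The proportions among the members changed along with their level. TPM divides by transcript length, so it allows genes to be compared within a library, although in these libraries 42.7% to 63.2% of all TPM belonged to 7SL RNA. In TAA, Col3a1 averaged 48.7 ± 23.5 TPM, Col1a1 27.2 ± 12.3, Col1a2 20.8 ± 9.55, Col5a1 4.01 ± 1.26, Col5a2 2.97 ± 0.38 and Col5a3 2.75 ± 1.94 (SD, n = 2). Col3a1, Col1a1 and Col1a2 had this order in each TAA library. In control the means of the first 5 of these ran from 0.36 ± 0.29 TPM for Col5a2 to 3.45 ± 0.11 TPM for Col3a1, and Col5a3 averaged 3.97 ± 5.17 TPM (SD, n = 2). The lengths behind TPM differed between libraries. For Col5a2 the deposited values imply 6789 bases in control replicate 1 and 3529 in control replicate 2, where it had 0.15 and 0.56 TPM but 2.93 and 3.29 CPM.

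The TPM of Col1a1 over that of Col1a2 was 1.3 and 1.32 in TAA, against 0.480 and 0.518 in control. Control thus had more Col1a2 than Col1a1, and TAA had more Col1a1. In the 12 recovery libraries the ratio was 0.882 to 1.16, between the 2 groups without overlap with either. The same ratio of counts, which does not use the authors' length estimates, was 1.47 and 1.55 in TAA, 0.990 to 1.34 in recovery and 0.498 and 0.674 in control. The TPM of Col3a1 over that of Col1a1 was 1.82 and 1.73 in TAA, 1.75 to 3.29 in recovery and 6.88 and 3.43 in control. By counts this ratio was 1.35 and 1.28 in TAA, 1.39 to 2.2 in recovery and 6.18 and 3.06 in control. The recovery libraries then overlapped with neither group. These ratios are descriptions without a test.

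**Figure D4:**
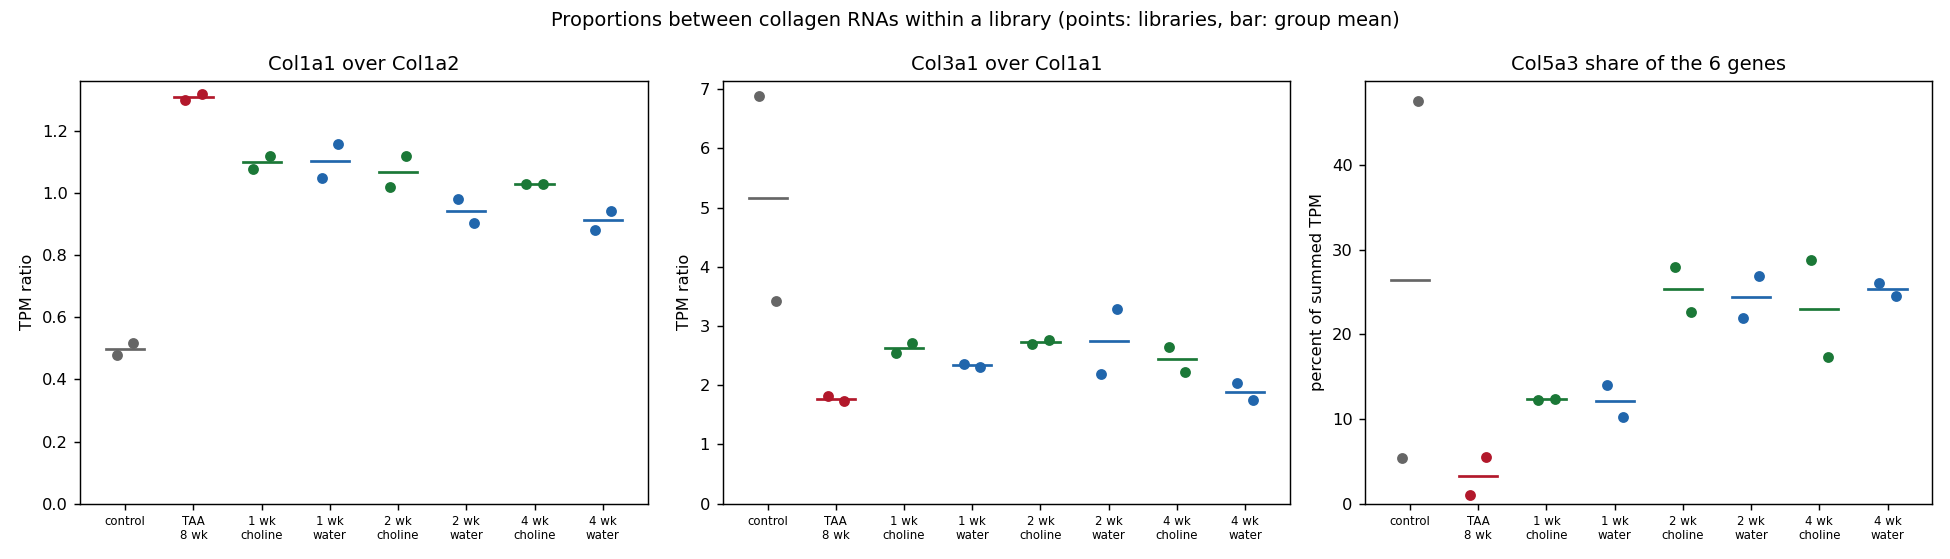
TPM ratio of Col1a1 over Col1a2 (left), TPM ratio of Col3a1 over Col1a1 (middle) and share of Col5a3 in the summed TPM of the 6 genes in percent (right) for each library (points), with the mean of each group (bars). The left ratio was 1.3 and 1.32 in TAA, 0.882 to 1.16 in recovery and 0.480 and 0.518 in control.

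Col5a3 made up a larger part of the members' summed TPM after recovery than at the end of thioacetamide, with 0.998% and 5.53% in TAA, 10.2% to 28.8% in recovery, and 5.35% and 47.6% in control. Of the other type V chains, Col5a1 held 3.54% and 4.19% in TAA, 4.74% to 7.89% in recovery, and 7.77% and 8.00% in control. Col5a2 held 2.34% and 3.63% in TAA, 2.05% to 2.95% in recovery, and 2.59% and 3.50% in control. The 3 chains together held 6.88% and 13.3% in TAA, 17.9% to 22.5% in the 4 libraries at 1 week, 25.4% to 38.0% in the 8 libraries at 2 and 4 weeks, and 15.7% and 59.1% in control. These shares are descriptions without a test, and those of Col5a2 carry its uneven implied lengths. The control library with 5.35% is the one low in Malat1.

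The 2 libraries lowest in Malat1 were also the 2 lowest in Col5a3, TAA replicate 1 at 8.28 CPM and control replicate 1 at 5.49 CPM. The sum of the other 5 members was 660 CPM in TAA replicate 1 and 434 in TAA replicate 2, and 79.9 CPM in control replicate 1 and 76.5 in control replicate 2. Of these 5, Col3a1 alone was higher in control replicate 1 than in control replicate 2, and Col5a1 was at 7.64 and 15.9 CPM there. Among the 14 remaining libraries Col5a3 was lowest in TAA replicate 2, at 30.8 CPM. Col27a1, another fibrillar collagen gene, resembled it. Col27a1 had 7.10 and 12.2 CPM in TAA, 28.4 to 53.4 CPM in the 12 recovery libraries, and 3.75 and 61.6 CPM in control. The part of RNA quality or nuclear RNA content in these levels was not tested. The transcript length that the deposited TPM and counts of Col5a3 imply was 5951 to 6175 bases over the 16 libraries, close to the 6119 bases of its longest annotated transcript. Other members were less steady, with 3529 to 6789 bases for Col5a2, 3672 to 5314 for Col3a1 and 5927 to 7282 for Col5a1. Their longest transcripts have 6625, 5564 and 8406 bases.

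**Figure D5:**
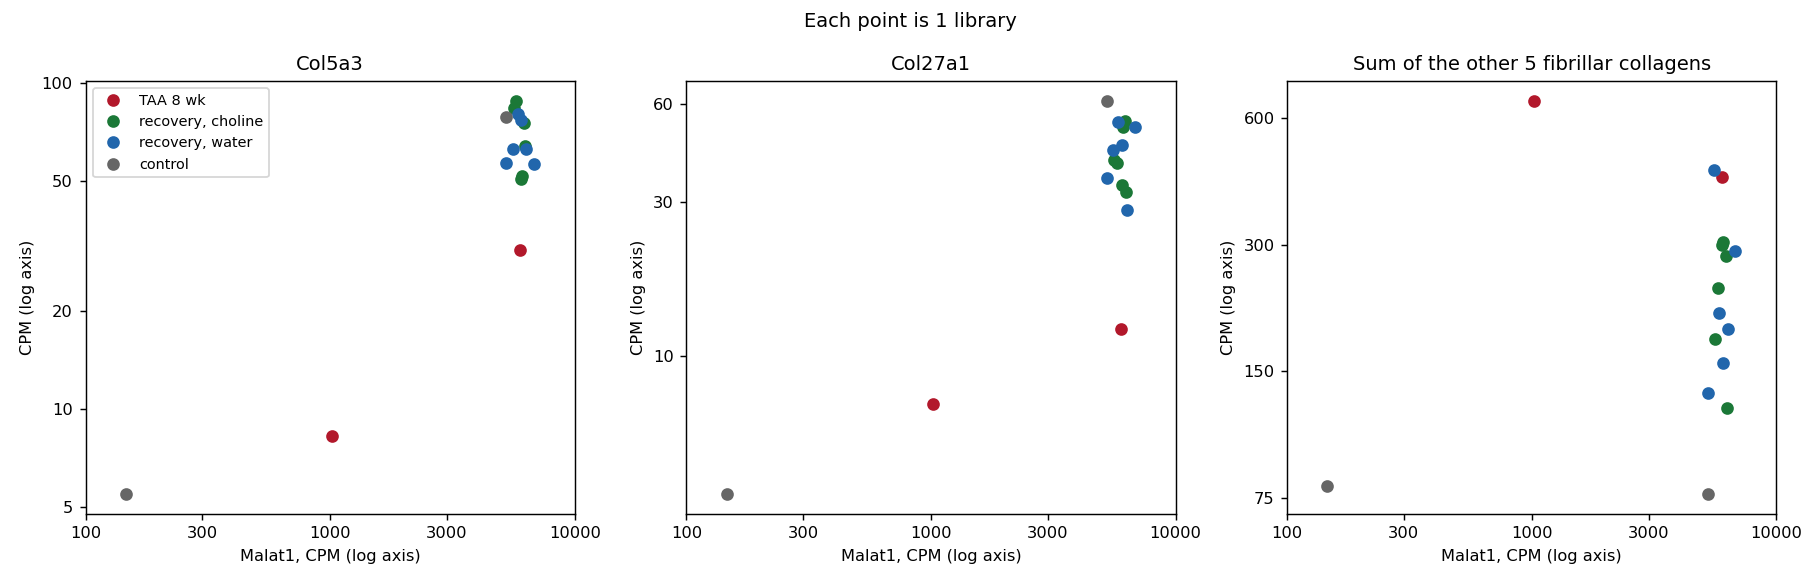
CPM of Col5a3 (left), Col27a1 (middle) and the sum of Col1a1, Col1a2, Col3a1, Col5a1 and Col5a2 (right) against CPM of Malat1 in the 16 libraries, all on log axes. The libraries at 1019 and 146 CPM of Malat1 are TAA replicate 1 and control replicate 1, which are the lowest in Col5a3 and Col27a1 and are not the lowest of their groups in the sum.

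Of the 5 other fibrillar collagen genes listed, 3 passed the filter, Col27a1 among them, and their median log2 fold change between TAA and control was -0.24. Col2a1 and Col11a1 did not exceed 0.0377 CPM in any library and Col24a1 did not exceed 0.821 CPM. Col11a2 had 1.34 and 9.07 CPM in TAA and 0.183 and 1.301 CPM in control, and was the 1 called between these groups (log2 2.75 ± 0.86, edgeR adjusted p = 0.0403).

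Of 20 tested genes for the folding and modification of procollagen, 1 was higher and 3 were lower in TAA than in control (10% of all genes were higher and 11% lower), and the median log2 fold change was 0.16 (0.03 for all genes). Fkbp10, a prolyl isomerase of the endoplasmic reticulum, was higher (log2 1.73 ± 0.55). Ppib, a further isomerase, was lower (log2 -1.12 ± 0.33), as were the lysyl hydroxylase Plod1 (-0.60 ± 0.12) and the prolyl hydroxylase subunit P4ha1 (-0.69 ± 0.18). Ppib had 134 and 105 CPM in TAA, against 374 and 145 CPM in control, where the higher value is that of the library low in Malat1. Serpinh1, the collagen chaperone HSP47, had 30.5 and 21.4 CPM in TAA and 30.9 and 13.4 CPM in control. In recovery against TAA, 3 further genes of this list were called at 4 weeks, P4ha1 higher on choline, P3h1 lower on choline and Plod3 lower on water. At that time 6.23% of all genes were higher and 7.43% lower on choline, and 6.47% and 8.39% on water. Mia3, which helps load procollagen into transport carriers, was higher at 4 weeks of choline (log2 0.66 ± 0.16) and at 2 and 4 weeks of water (0.56 ± 0.16 and 1.02 ± 0.16).

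Of 6 tested genes for procollagen processing, 1 was higher and none lower in TAA than in control (10% of all genes were higher and 11% lower). Adamts2, which removes the amino-terminal propeptide of procollagen, was that gene (log2 1.54 ± 0.44, edgeR adjusted p = 0.0281), with 18.1 and 11.3 CPM in TAA and 5.12 and 4.997 CPM in control. Of 11 tested genes for fibril-associated collagens and proteoglycans 4 were higher and none lower, among them Col6a3 (log2 2.84 ± 0.55), Col6a1 (1.49 ± 0.44) and Col16a1 (1.12 ± 0.29). Col6a3, a chain of the beaded filaments of type VI collagen, had 93.4 and 65.9 CPM in TAA and 9.28 and 12.9 CPM in control. In recovery against TAA, Col14a1 at 1 week of choline was the 1 call in this list (log2 0.70 ± 0.18, edgeR adjusted p = 0.0462). There 2.48% of all genes were higher.

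Of 8 tested genes for collagen cleavage and uptake, 5 were higher and 1 was lower in TAA than in control (10% of all genes were higher and 11% lower). Mmp13, an interstitial collagenase of mice, had 0.308 and 0.948 CPM in TAA and 0.0457 and 0.0342 CPM in control (log2 3.84 ± 0.94). The endocytic collagen receptor Mrc2 was higher too (2.27 ± 0.56), as was cathepsin K, encoded by Ctsk (2.01 ± 0.48). In recovery against TAA edgeR called none of the 8 at any time, with list medians of -0.29 to -0.92.

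Markers of cells that a whole liver sample holds differed between TAA and control as well, where 10% of all genes were higher and 11% lower. Of 7 tested myofibroblast genes 2 were higher in TAA than in control, the collagen cross-linking enzymes Lox (log2 3.52 ± 0.62) and Loxl1 (1.79 ± 0.59), and the 8 genes of the list summed to 49.6 to 68.4 CPM in TAA and 17.5 to 44.7 CPM in control. Acta2, the smooth muscle actin of myofibroblasts, had 3.91 and 6.16 CPM in TAA and 2.52 and 0.856 CPM in control, and was not called between these groups. Portal fibroblast genes had 3 of 6 higher, among them elastin (Eln, log2 2.90 ± 0.49), and summed to 45.9 to 59.6 CPM in TAA and 12.2 to 17.1 CPM in control. Stellate cell genes had 1 of 9 higher, Lrat (0.77 ± 0.17), near the 10% of all genes, and 2 lower. Their median log2 fold change was -0.01. Their sum overlapped between the groups, at 358 to 419 CPM in TAA and 385 to 513 CPM in control.

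Beside 10% of all genes higher and 11% lower, bile duct cell genes had 4 of 7 higher, led by Cldn4 (log2 5.06 ± 0.71). Their sums were 115 and 435 CPM in TAA and 55.3 to 59.1 CPM in control. Macrophage genes had 2 of 6 higher, Trem2 (3.23 ± 0.55) and Marco (1.91 ± 0.42). Hepatocyte genes had 2 of 6 lower and endothelial genes 2 of 5 lower, among them Serpina1c (-2.05 ± 0.37) and Stab2 (-0.85 ± 0.22). The 6 hepatocyte genes had the highest sum of the cell type lists in every library, 66260 to 102700 CPM. The part of cell numbers in the collagen levels was not tested.

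During recovery a few of these markers were lower than in TAA at 2 and 4 weeks, where 4.5% to 8.39% of all genes were lower. Lrat was the 1 of 9 stellate cell genes called lower, on choline (log2 -1.15 ± 0.17 and -0.93 ± 0.17) and on water (-0.72 ± 0.17 and -0.81 ± 0.17). The list as a whole did not fall with it, with medians of 0.01 and 0.08 on choline and -0.25 and 0.14 on water. Postn, a matrix protein of activated fibroblasts, was lower at 4 weeks on choline (-0.91 ± 0.25) and on water (-1.20 ± 0.25), and Acta2 at 4 weeks on water (-1.80 ± 0.54). These were the only calls among 7 myofibroblast genes at 4 weeks. Cldn4 had log2 differences from TAA of -3.14 to -2.28 at 2 and 4 weeks with either treatment. It was the 1 of 7 bile duct cell genes called each time. Of 5 endothelial genes, 3, 0 and 4 were higher than in TAA at 1, 2 and 4 weeks on choline, and 0, 1 and 4 on water. Of all genes, 1.97% to 6.47% were higher in these comparisons.

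Among 9845 other tested genes with a mean of at least 5 CPM, those whose log2 CPM followed the mean standardised level of the 6 members most closely over the 16 libraries were Fbn1 (Pearson r = 0.98), Ptprs (0.973), Myadm (0.965), Eln (0.959), Ano1 (0.954), Cyp2a4 (0.951), Ehf (0.945), Itga6 (0.944), Col6a3 (0.944) and Amot (0.942). Fbn1 and Eln encode fibrillin-1 and elastin, the components of elastic fibres. This list depends on Col5a3 and on the libraries low in Malat1. For the 5 members without Col5a3 over the other 14 libraries, the closest genes were Tnfrsf19 and Fstl1 (0.97 each), and Fbn1, Myadm and Eln stayed among the 10 closest. The libraries share their groups, so these values rank genes by likeness and carry no test.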

How the data were processed

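RNA of 16 mouse liver samples was extracted with TRIzol, depleted of ribosomal RNA and made into directional libraries, per the labels' protocols. The deposited table gives expected counts and TPM per gene and library, made by the authors; 8.7% of the expected counts are fractional. STAR 2.7.10b, RSEM 1.3.3, DESeq2 1.36.0 and GRCm38 appear in the submitters' processing notes, with no step assigned to any of them, and the annotation release and strand setting are not known here. The 2 columns that match no sample were left out.

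Expected counts were rounded, and genes with low counts were removed with filterByExpr of edgeR 4.0.16 in R 4.3.3 (17292 of 55401 genes stayed). Libraries were scaled by TMM, and CPM are counts per megacount of the scaled library. A single robust quasi-likelihood model with 8 group means (8 residual degrees of freedom) gave 19 two-sided comparisons, adjusted by Benjamini-Hochberg over all genes at 0.05. Calls recovered in simulated counts were used to test the scripts. DESeq2 1.42.0 and other fits served as alternatives. The members and gene lists were chosen with earlier results of these data known. Up to 3 called genes of smallest p were named per list and comparison, while Fkbp10, Serpinh1, Acta2, Col14a1 and the sparse Col2a1, Col11a1 and Col24a1 were named after their values were seen.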

Additional observations from a re-analysis of the deposited data

Results flagged for a closer look

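The choline effect on 2 type V genes pointed in opposite directions at 1 and 2 weeks without overlap of the libraries. Col5a2 at 1 week had 10.97 and 11.3 CPM on choline and 12.02 and 14.02 CPM on water, and at 2 weeks 7.90 and 7.86 CPM on choline and 6.68 and 6.27 CPM on water. The 2-week choline effect minus the 1-week effect was 0.507 on the log2 scale, and the test of that difference did not pass (edgeR adjusted p = 1). Col5a3 at 1 week had 52.0 and 50.8 CPM on choline and 56.4 and 62.8 CPM on water, and at 2 weeks 83.8 and 88.2 CPM on choline and 62.9 and 77.2 CPM on water. Its difference of effects was 0.509 (edgeR adjusted p = 1).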

How the results depend on the processing

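DESeq2 size factors changed no call among 78 member values in the 13 comparisons with TAA or control (35 calls). Replicate numbers were not treated as pairs in the main model. Correlations of same-numbered deviations were -0.24 to 0.54 over 28 group pairs, with a median of 0.05, and over 0.1 in 11. A replicate block gave 38 calls, with 1 member at 1 week of choline against TAA and 2 at 2 weeks of choline against control. The DESeq2 Wald test gave 46, with 1 at 1 week of choline against TAA, 3 at 2 weeks of water and 4 at 2 and at 4 weeks of choline against control, and 1 between weeks 2 and 1. Without the filter there were 68 calls, with 3 at 1 week of water and 5 at 1 and 2 weeks of choline against TAA, 6 at 2 and 4 weeks with either treatment against control, and 4 between weeks 2 and 1. Fitting only the groups compared, which leaves few degrees of freedom, gave 12, with 0 for TAA against control, 1 at 4 weeks of choline against TAA, 0 for each recovery group against control, and 2 between weeks 2 and 1. Without both libraries low in Malat1 there were 18, with 1 at 1 week and 2 at 2 weeks of water, 2 at 4 weeks of water, 1 at 1 week of choline and 2 at 4 weeks of choline against TAA, 1 at 1 and at 4 weeks with either treatment and 0 at 2 weeks of choline against control, and 1 between weeks 2 and 1. Omitting single libraries gave 4 to 5 members for TAA against control. Against TAA it gave 0 to 1 at 1 week of choline, 0 to 5 at 2 weeks of choline, and 1 to 5 at 2 and 4 weeks of water and 4 weeks of choline. Against control it gave 1 to 6 at 1 week of water, 0 to 6 at 1 week of choline and 0 to 4 in the other recovery groups. Between weeks 2 and 1 it gave 0 to 1. The cause of these shifts was not tested. These counts join both directions. For TAA against control, any call of Col5a3 was lower and those of the other members were higher. For recovery against TAA, any call of Col5a3 was higher and those of the other members were lower. The 2 calls between weeks 2 and 1 from only the groups compared were Col5a2 lower and Col5a3 higher. Signs were the same in all settings for 84 of 114 values. Without both libraries low in Malat1, Col5a3 against control turned to -0.40, -0.16 and -0.20 at 1, 2 and 4 weeks of water and to -0.61 and -0.17 at 1 and 4 weeks of choline. Col5a1 turned to -0.03 for 1 week of water over TAA with the block and to 0.01 for choline over water at 4 weeks with DESeq2 size factors and the DESeq2 Wald test, and Col1a1 to -0.02 for week 4 over week 2 with the block. Log2 ranges over the omissions crossed 0 for 30 values. For TAA over control the range was Col5a3 -2.35 to 1.81. For 1 week of water over TAA the range was Col5a1 -0.30 to 0.26. For 1 week of choline over TAA the range was Col5a1 -0.19 to 0.01. For 1 week of water over control the range was Col5a3 -0.41 to 3.43. For 2 weeks of water over control the range was Col5a3 -0.17 to 3.67. For 4 weeks of water over control the range was Col5a3 -0.20 to 3.64. For 1 week of choline over control the range was Col5a3 -0.62 to 3.22. For 4 weeks of choline over control the range was Col5a3 -0.18 to 3.66. For choline over water at 1 week the range was Col1a1 -0.66 to 0.03, Col1a2 -0.64 to 0.01, Col3a1 -0.56 to 0.08 and Col5a1 -0.36 to 0.20. For choline over water at 2 weeks the range was Col1a2 -0.05 to 0.31. For choline over water at 4 weeks the range was Col1a1 -0.77 to 0.81, Col1a2 -0.76 to 0.57, Col3a1 -0.20 to 0.94, Col5a1 -0.39 to 0.30, Col5a2 -0.25 to 0.53 and Col5a3 -0.20 to 0.30. For choline over water in the mean of the 3 times the range was Col1a1 -0.28 to 0.25, Col1a2 -0.32 to 0.12, Col3a1 -0.05 to 0.33, Col5a1 -0.12 to 0.11, Col5a2 -0.06 to 0.20 and Col5a3 -0.04 to 0.13. For week 4 over week 2 the range was Col1a1 -0.45 to 0.34, Col1a2 -0.22 to 0.45, Col3a1 -0.52 to 0.04, Col5a1 -0.25 to 0.09 and Col5a2 -0.20 to 0.19. The precision of all values is limited by 2 libraries a group, of which TAA and control each hold 1 low in Malat1.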
